A study of Homo sapiens with 9 samples.

Results

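High glucose was compared with low glucose in AC16 cells over every gene with a mean of at least 0.5 FPKM (a transcript's fragments, scaled by its length and by the library's total) in either group, which kept 16163 of the 60671 rows of the table. AC16 is an established human line, obtained from a fusion between cells of the adult ventricle and a fibroblast line, and the labels call it a cardiomyocyte line. Polyadenylated RNA was measured in 3 libraries of cells treated with low glucose, 3 of cells treated with high glucose and 3 of cells treated with high glucose and chrysin, a plant flavonoid; the last group is used here only for its share in the estimate of spread between replicates. The series concerns diabetic cardiomyopathy and ferroptosis, and the comparison asks which transcripts differ between the sugar levels. The sources used here give no glucose concentrations, chrysin dose, medium or treatment time. The labels do not state that replicates were separate cultures, so p-values cover only the spread among these libraries, and that spread may be technical. Genes just inside the limit on level were VAMP8, SLC25A34 and PIPSL at 0.501 FPKM in the higher group, and those just outside it were TUBAP2, ZNF296 and USP27X-AS1 at 0.4997 to 0.4999. Between 0.5 and 0.55 FPKM lay 316 genes that were kept, and between 0.45 and 0.5 lay 338 that were not.

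As background, glucose enters these cells through facilitative transporters and is phosphorylated, and its 6-phosphate activates the transcription factor MondoA, whose best known target is TXNIP. Glucose also supplies the sugar chains that are attached to proteins in the endoplasmic reticulum (ER), and a short supply of them leaves proteins misfolded there. Misfolded protein activates the sensors IRE1 (gene ERN1), PERK (EIF2AK3) and ATF6, which raise ER chaperones and, through the transcription factor ATF4, amino acid metabolism genes and CHOP (DDIT3).

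Recovered reads ran from 18171842 to 23024300 in the low and high glucose libraries. High glucose library 1 stood apart from its replicates: over the most abundant genes the mean chi-square of read counts per gene was 28.1 and 31.5 between it and libraries 2 and 3, against 6.77 between those libraries and 5.55 to 7.44 between pairs of low glucose libraries. Markers of cardiac muscle were mostly lacking: of 20 checked, 5 (PLN, MYL2, NKX2-5, TBX5 and MYBPC3) were at 0 in all 6 libraries and MYH6, MYH7 and TNNT2 did not pass 0.137 FPKM in any of them. Only 4 cardiac markers entered the test, GATA4, DES, ATP2A2 and NPPB, whereas all 16 fibroblast markers and 7 of 8 smooth muscle markers did.

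A total of 2540 genes (15.7% of those tested) were higher and 1540 (9.53%) lower in high glucose at a limma adjusted p under 0.05. The 3 libraries of each group did not overlap for 4024 of these 4080 genes, and for 6383 (39.5%) of all genes tested. Most changes were small: the median log2 fold change was 0.26 among genes that rose and -0.28 among those that fell. A log2 change of at least 1 was reached by 25 genes upward (0.155%) and 70 downward (0.433%), and one of at least 2 by 2 upward and 9 downward. Genes that rose made up 62.3% of the calls, a share that was 52.1% with median-of-ratios scaling (2049 higher, 1886 lower) and 51.4% after correction for GC content and length (2183 and 2062). Across all genes tested the median log2 fold change was 0.03 and the 5th and 95th percentiles were -0.44 and 0.45.

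**Figure D1:**
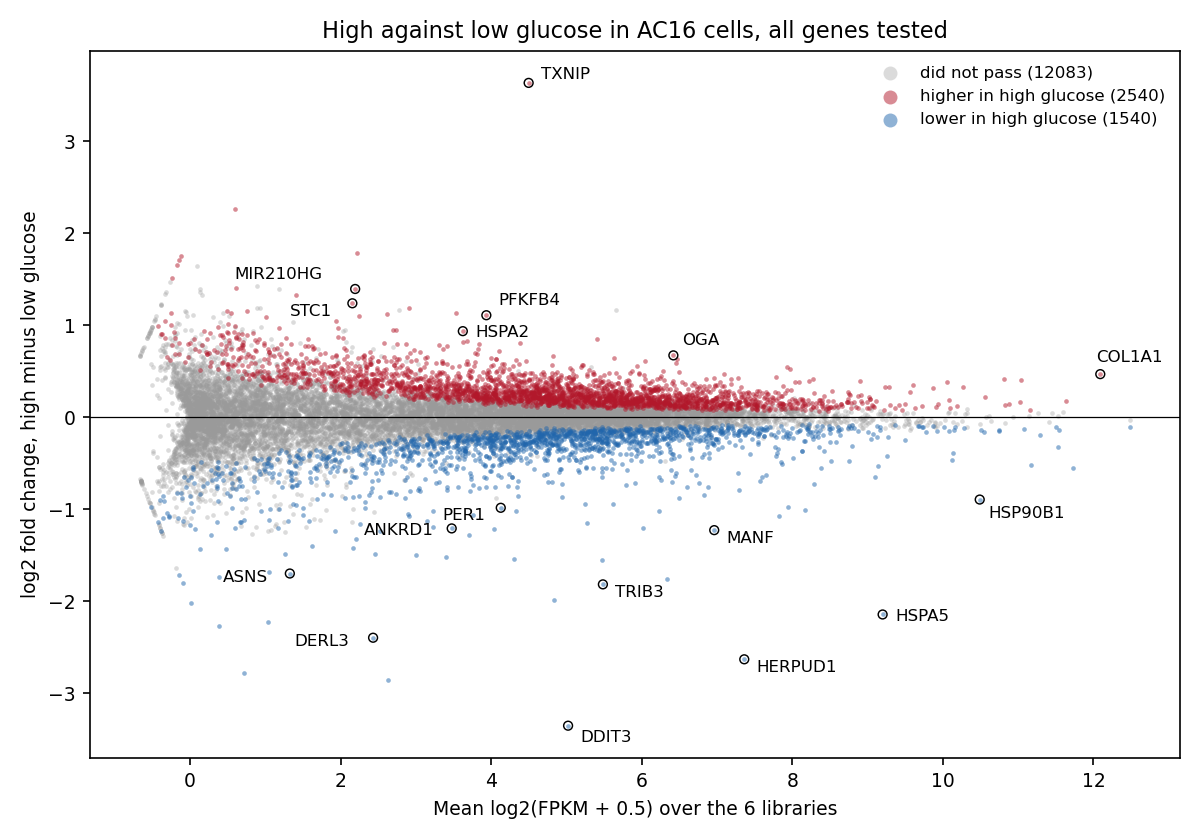
Log2 fold change (high minus low glucose) against the mean log2(FPKM + 0.5) over the 6 libraries, one point per gene tested. TXNIP stands alone at the top at 3.64, and labelled genes far below 0 include DDIT3 (-3.35), HERPUD1 (-2.63), DERL3 (-2.39) and HSPA5 (-2.14).

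How many genes passed depended on their level. From 0.5 to 1 FPKM 2.05% rose and 2.0% fell, from 5 to 20 FPKM 16.2% and 10.7%, and at 100 FPKM or more 28.6% and 18.2%. Among 12340 protein-coding genes 19.3% rose and 10.9% fell, and among 2127 long noncoding RNA genes 4.70% and 5.08%. Every fold change is a difference of log2(FPKM + 0.5), so that of a low gene is understated, and bulk RNA cannot tell fewer cells of a type from less RNA per cell.

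TXNIP, which blocks thioredoxin and pulls glucose transporters from the cell surface, was the most changed gene in either direction. Its level was 5.92, 5.72 and 6.07 FPKM in the low glucose libraries and 79.2, 78.2 and 80 in the high glucose ones (means 5.9 ± 0.17 and 79.2 ± 0.91, SD, n = 3). The groups were far apart, with a ratio of means of 13.4 and a log2 fold change of 3.64 (SE 0.05, adjusted p = 6.1e-12). The TXNIP promoter is known for paired E boxes that bind MondoA with its partner MLX. The stretch with a match to the carbohydrate response element is shown because TXNIP carries the largest change of the data (RefSeq, GRCh38.p14, chr1:145996631-145996687, minus strand, the match beginning 88 bases before the gene start). Capitals mark a pair of CACGNG boxes set 5 bases apart.
TXNIP: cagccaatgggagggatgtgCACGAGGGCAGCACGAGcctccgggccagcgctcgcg

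This element was sought on both strands in 300-base RefSeq windows, from 250 bases before to 50 after each listed start, in 27305 genes. It was present in 20 of them (0.0732%), of which 16 were tested, and windows were found for 10563 of the 16163 genes tested (65.4%). Of these 16, 5 rose (TXNIP, KCTD5, RCN3, P4HA1 and RAN) and 1 fell (GFPT1), beside 18.6% higher and 10.8% lower among tested genes without a match. Apart from TXNIP the changes ranged only from -0.30 in GFPT1 to 0.25 in KCTD5 among those that passed. The call of P4HA1 was lost on leaving out the first low glucose library (adjusted p = 0.056), and the change of RCN3 was 0.15, or 0.09 after correction for GC content and length.

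Counts in this and later lists stand beside 15.7% higher and 9.53% lower over all genes tested, shares that were larger among abundant genes. Among the 24 tested genes of the MondoA network, the alpha-arrestins and the thioredoxin system, 7 rose and 3 fell, with a median of 0.07. ARRDC4, the alpha-arrestin closest to TXNIP, was low in every library, at 0.318, 0.325 and 0.465 FPKM in low and 1.16, 0.940 and 1.11 in high glucose. Its change was 0.86 (SE 0.18, adjusted p = 0.0051) and 1.33 with a pseudocount of 0.1 or 1.53 with limma voom on recovered reads. KLF10, a zinc finger factor, rose by 0.62 (adjusted p = 0.00023) and MXI1, a MAX partner, by 0.37. Another alpha-arrestin, ARRDC3, went the other way: 38.8, 44.3 and 44.3 FPKM in low and 28.4, 33.2 and 29.2 in high glucose, a change of -0.48 (adjusted p = 0.0018). MXD1 also fell (-0.52), and MLXIP, which encodes MondoA itself, did not pass (0.10, adjusted p = 0.074, or 0.035 without low glucose library 1).

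**Figure D2:**
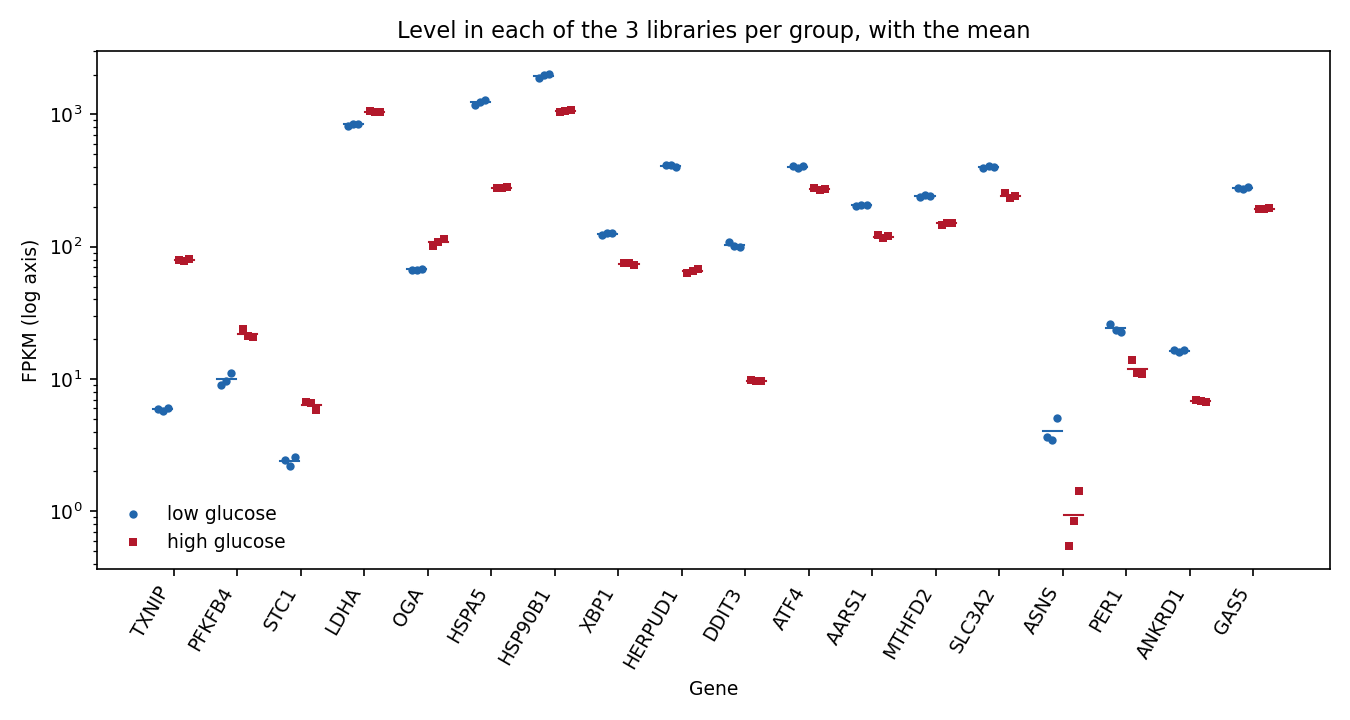
FPKM on a log axis for 18 genes, with each of the 3 low glucose libraries (circles), each of the 3 high glucose libraries (squares) and the group means (lines). For every gene drawn the groups are separate; TXNIP shows the widest gap upward and DDIT3 the widest downward.

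The ER chaperones had the lowest median of the 37 lists compared. Of 35 tested, 23 fell and 3 rose, with a median of -0.34 against 0.03 over all genes. Their summed FPKM took 1.77% to 1.83% of each low glucose library and 1.19% to 1.20% of each high glucose library. HSPA5, or BiP, the abundant HSP70 of the ER lumen (chromosome 9, 125234853 to 125241330, minus strand, hg38), was at 1186, 1238 and 1282 FPKM in low and 276, 277 and 285 in high glucose. These values gave means of 1235 ± 47.7 and 279 ± 4.5 (SD, n = 3), 4.42 times higher in low glucose (log2 -2.14, SE 0.03, adjusted p = 6.1e-12).

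Co-chaperones of BiP and the HSP90 and HSP110 proteins of the ER fell with it. HSP90B1, the ER HSP90 known as GRP94, was at 1897, 1970 and 2009 FPKM in low and 1037, 1053 and 1074 in high glucose (-0.89, SE 0.03, adjusted p = 3.3e-09). HYOU1, which exchanges the nucleotide of BiP, fell from 344 ± 8.7 to 175 ± 1.8 FPKM (-0.97). Of the J-domain partners of BiP, DNAJB9 (-1.98), DNAJC3 (-1.02) and DNAJB11 (-0.87) fell, as did SDF2L1 (-1.75), which works with DNAJB11. FICD, the enzyme that puts AMP on BiP, fell from 24.6 ± 1.3 to 10.3 ± 0.31 FPKM (-1.21, adjusted p = 2e-07), outside the list and named after its value was seen.

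Lectin chaperones and disulfide isomerases also fell. CALR, calreticulin, was at 2725, 2792 and 2762 FPKM in low and 1979, 1883 and 1907 in high glucose, without overlap (-0.52, SE 0.02, adjusted p = 1.6e-07), and its membrane-bound relative CANX fell by 0.39. Among disulfide isomerases PDIA4 fell by 1.0, PDIA6 by 0.44, PDIA3 by 0.42 and P4HB by 0.15, or by 0.22 after correction for GC content and length. The secreted ER proteins MANF (-1.23) and CRELD2 (-1.21) fell more than any of these isomerases in size of log2 change. The list's 3 rises were SDF2 (0.35), the constitutive relative of SDF2L1, the prolyl isomerase FKBP11 (0.24) and the collagen chaperone SERPINH1 (0.18, or 0.11 after correction for GC content and length). The sources used here do not say whether counting was by strand, and DNAJB9, HSP90B1, CRELD2, FICD, PDIA6 and DERL3 each overlap a gene on the other strand. The same holds outside this list for MTHFD2, PCK2, MAT2A, SLC6A6, SLC16A3, NR1D2, BMF and GAS5, among others, so reads of such pairs may be shared.

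Promoters of this group hold a known motif, the ER stress element, at which the factor NF-Y binds the CCAAT end and ATF6 the CCACG end. CCAAT and CCACG with 9 bases of any kind between them were sought on both strands in the same windows and were found in 25 of 27305 genes (0.0916%). They occurred in 7 of the 31 tested ER chaperones with a window. Stretches are printed for 6 genes whose levels the results turn on, in GRCh38.p14 from RefSeq, on the strand of each gene. Capitals mark each match, which runs from CGTGG to ATTGG where it lies on the other strand. They are HSPA5 (chr9:125241371-125241429, minus strand), HSP90B1 (chr12:103930196-103930359, plus strand, 2 matches), CALR (chr19:12938364-12938422, plus), CRELD2 (chr22:49918534-49918592, plus), FICD (chr12:108515103-108515161, plus) and XBP1 (chr22:28800583-28800641, minus).
HSPA5: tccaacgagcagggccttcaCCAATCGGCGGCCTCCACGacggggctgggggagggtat
HSP90B1: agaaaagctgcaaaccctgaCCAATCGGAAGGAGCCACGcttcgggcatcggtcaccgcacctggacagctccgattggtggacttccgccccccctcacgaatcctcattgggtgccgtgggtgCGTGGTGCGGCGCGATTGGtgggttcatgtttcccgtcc
CALR: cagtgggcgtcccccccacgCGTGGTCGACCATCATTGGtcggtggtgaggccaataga
CRELD2: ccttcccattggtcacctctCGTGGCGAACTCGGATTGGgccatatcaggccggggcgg
FICD: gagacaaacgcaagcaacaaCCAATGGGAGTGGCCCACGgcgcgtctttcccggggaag
XBP1: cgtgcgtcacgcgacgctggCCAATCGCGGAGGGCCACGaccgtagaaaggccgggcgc

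Of the 25 genes with the ER stress element 16 were tested, and 12 of them fell while none rose, with a median of -0.45. Among tested genes with a window and no match 10.7% fell and 18.7% rose, with a median of 0.03. The 12 were HSPA5, FICD, CRELD2, HSP90B1, XBP1, ERO1B, CALR, ALG12, PDIA6, CANX, EIF2A and SERP1, ordered from the largest fall (-2.14) to the smallest (-0.13). The call of SERP1 was lost on leaving out the first or second low glucose library (adjusted p = 0.055 and 0.061). CRELD2 and the mannosyltransferase gene ALG12 lie head to head and share 1 element, as the coordinates of both windows are the same, and EIF2A and SERP1 overlap on opposite strands, so the 16 genes are not independent. The 4 that did not pass were TRIM5 (-0.22, adjusted p = 0.088), ZNF17 (-0.04), TMEM120A (-0.01) and SYNPO (0.17). Genes without the element fell too. Of 24 ER chaperones with a window and no match 14 fell and 3 rose, while all 7 with a match fell. Of 21 sensors and transcription factors of the stress response without a match 10 fell and 0 rose. Among the 20 largest falls described in the methods, 13 had a window and 1 of these, HSPA5, had the element. A match is a description of letters and was not tested as a binding site.

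**Figure D3:**
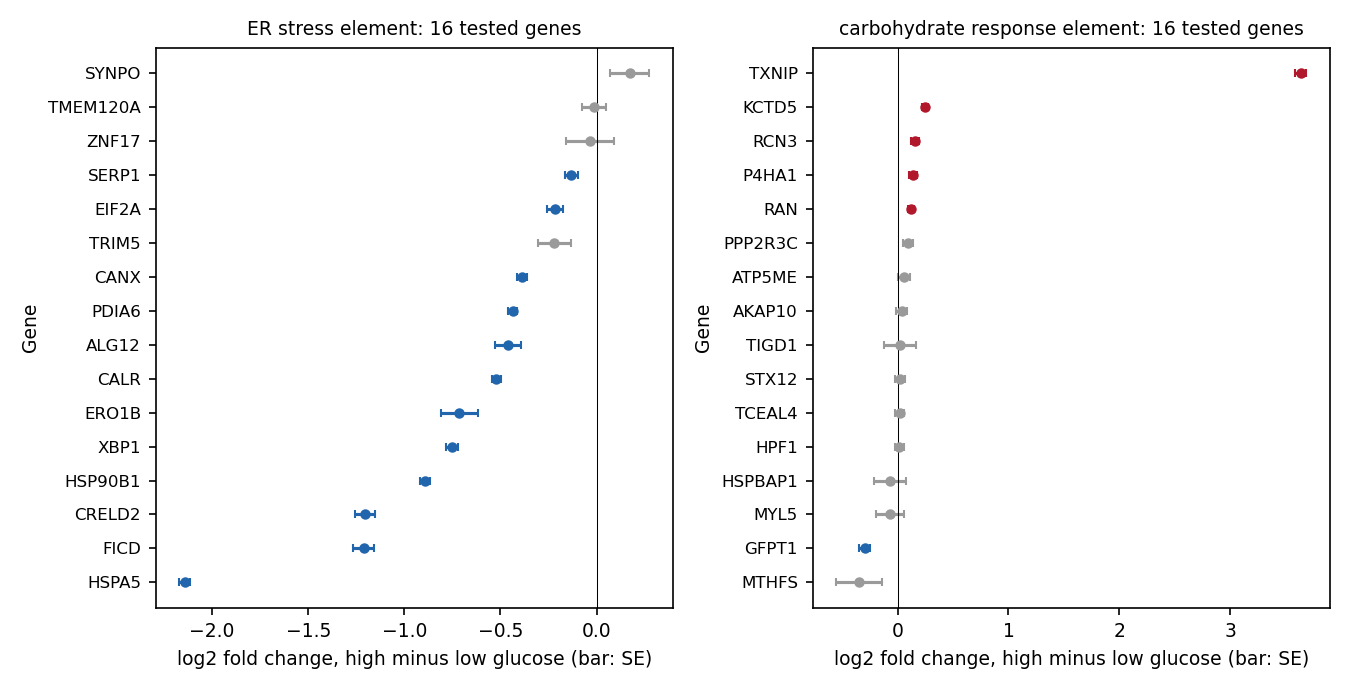
Log2 fold change with its SE for the 16 tested genes whose promoter windows match the ER stress element (left) and the 16 that match the carbohydrate response element (right). On the left 12 genes lie below 0 and passed the test; on the right TXNIP is at 3.64 and the others lie near 0.

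The sensors and transcription factors of the stress response fell in 12 of 25 cases and rose in none, with a median of -0.12; under 5 of 19 alternatives 1 member rose. DDIT3, or CHOP (chromosome 12, 57516588 to 57521737, minus strand), was at 109, 101 and 99.3 FPKM in low and 9.75, 9.63 and 9.62 in high glucose. That is a ratio of means of 10.7 (log2 -3.35, SE 0.07, adjusted p = 1.7e-10), for a gene with MARS and MBD6 overlapping it on the opposite strand. TRIB3, a pseudokinase that CHOP and ATF4 induce, fell from 83.4 ± 1.4 to 23.4 ± 0.84 FPKM (-1.81), and NUPR1, a small stress-induced chromatin protein, from 8.65 ± 0.15 to 2.79 ± 0.37 (-1.48).

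Transcripts of the upstream factors gave smaller values. XBP1, which IRE1 splices, was at 124, 127 and 126 FPKM in low and 75.2, 75.3 and 72.7 in high glucose (-0.75, SE 0.03, adjusted p = 9.4e-08). ATF4 was at 407, 394 and 408 FPKM in low and 280, 269 and 275 in high glucose (-0.55, SE 0.03, adjusted p = 2e-07). The sensors ERN1 (-0.51, adjusted p = 0.0071) and EIF2AK3 (-0.35, adjusted p = 0.0046) fell, and ATF6 did not pass (22.4 ± 0.52 and 20.8 ± 0.92 FPKM, -0.11, adjusted p = 0.15). PPP1R15A, or GADD34, the phosphatase subunit that ends the block on translation, fell by 1.01, and CEBPG, a dimer partner of ATF4, by 0.75. Splicing of XBP1 and activation of the sensors were not measured.

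ER-associated degradation returns misfolded proteins to the cytosol for the proteasome. Of 31 tested genes 10 fell and 3 rose (1 on leaving out the last low glucose library, 5 on leaving out the first of high glucose), with a median of -0.04. HERPUD1, a scaffold of the HRD1 complex, was at 415, 412 and 399 FPKM in low and 63.2, 65.6 and 68.2 in high glucose, a ratio of means of 6.23 (log2 -2.63, SE 0.04, adjusted p = 7.7e-12). The ligase SYVN1, or HRD1 itself, fell by 0.94, its adaptor SEL1L by 0.85 and the rhomboid-like DERL3 by 2.39, from 11.9 ± 0.36 to 1.86 ± 0.20 FPKM. The mannosidase EDEM1 fell by 0.38. The members that rose were the extracting ATPase VCP (0.10), its cofactor UFD1 (0.13) and its membrane-bound recruiter FAF2 (0.11). Each of these rises was lost under at least 1 alternative, VCP after correction for GC content and length (adjusted p = 0.072), UFD1 without low glucose library 3 (0.054) and FAF2 under 9 of 19.

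Steps of the secretory pathway before and after folding did not move as one. Of 26 genes of the translocon, the signal recognition particle and signal peptidase 7 rose and 7 fell, with a median of -0.0037; the rises numbered 3 or 4 under 6 alternatives, among them median-of-ratios scaling and leaving out the first library of either group. SRP9 (0.16), SRP54 (0.18) and SEC61G (0.17) rose, and TRAM1 (-0.18), TRAM2 (-0.20) and the signal peptidase catalytic subunit SEC11C (-0.42) fell. In N-glycan assembly, transfer and trimming 13 of 42 fell, led by ALG12 (-0.46), the folding sensor UGGT1 (-0.36) and the dehydrodolichyl diphosphate synthase subunit NUS1 (-0.29). The 3 rises of that list ranged from 0 to 5 across alternatives and are not named. Among 48 coat and cargo receptor genes 11 rose and 11 fell (7 on leaving out low glucose library 3 or the second of high glucose). The exit-site organisers of large cargo MIA2 (-0.68) and MIA3 (-0.47) fell, and the retrieval receptors KDELR2 (0.19) and KDELR3 (0.28) and the COPII GTPase SAR1A (0.25) rose.

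**Figure D4:**
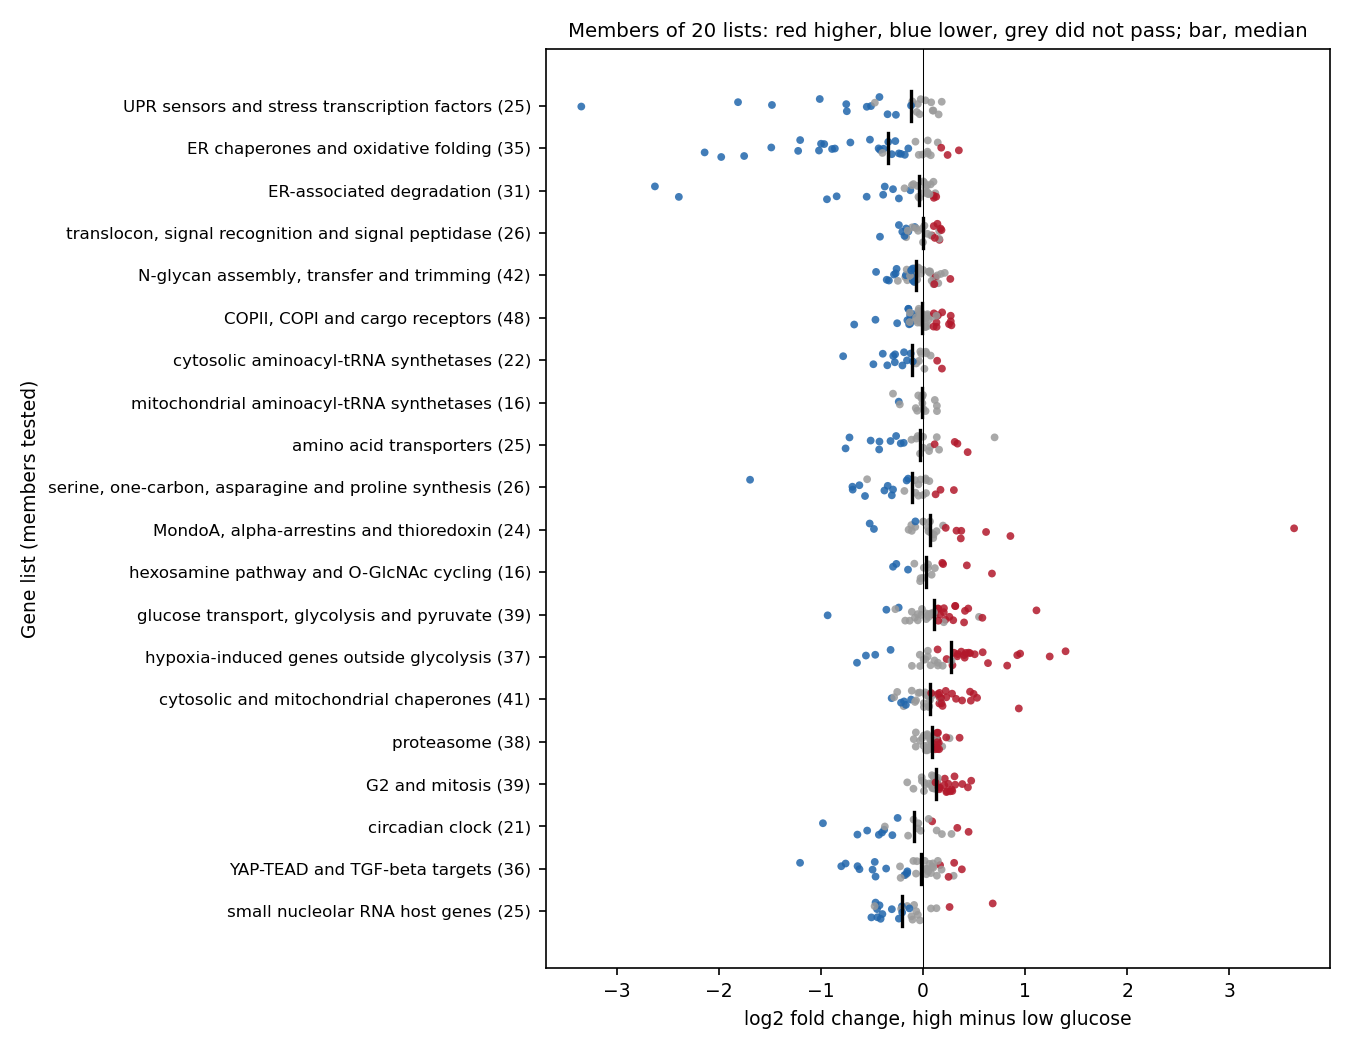
Log2 fold change of every tested member of 20 gene lists, one point per gene, red where it rose, blue where it fell and grey where it did not pass; black bars are medians. ER chaperones have the lowest median (-0.34) and hypoxia genes the highest (0.28) of the lists drawn.

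Among 22 genes for cytosolic aminoacyl-tRNA synthetases, which charge transfer RNAs, and their cofactors AIMP1 and AIMP2, 12 fell and 2 rose (1 under 5 alternatives). The median of the list was -0.11. Of 16 tested mitochondrial synthetases 1 fell and none rose; that fall, of EARS2 (-0.24), was lost without low glucose library 1 (adjusted p = 0.052). AARS1, for alanine, was at 203, 207 and 207 FPKM in low and 123, 116 and 120 in high glucose, without overlap (-0.78, SE 0.03, adjusted p = 5e-08). WARS1 for tryptophan (-0.49), SARS1 for serine (-0.40), GARS1 for glycine (-0.35) and YARS1 for tyrosine (-0.29) fell by less. RARS1, for arginine, rose from 166 ± 1.9 to 188 ± 4.5 FPKM (0.18, adjusted p = 0.00071).

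The element at which ATF4 dimers with C/EBP factors bind, TGATGNAAN, is printed for 3 genes that fell, in capitals, as NTTNCATCA where it lies on the other strand: AARS1 (chr16:70289666-70289714, minus strand), HERPUD1 (chr16:56931945-56931993, plus) and ASNS (chr7:97872448-97872496, minus), all GRCh38.p14 from RefSeq.
AARS1: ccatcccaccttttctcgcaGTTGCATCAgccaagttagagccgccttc
HERPUD1: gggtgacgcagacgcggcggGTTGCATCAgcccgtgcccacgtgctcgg
ASNS: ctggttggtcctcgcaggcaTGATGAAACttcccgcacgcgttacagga

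This short element was found in 4.45% of the 27305 genes. Of 285 tested genes with it 20.7% fell and 12.3% rose, beside 10.5% and 18.8% of those without. It lay in 7 of 18 genes of the cytosolic synthetase list with a window (38.9%), of which 6 fell. Of the 11 without it, AIMP1 and AIMP2 included, 3 fell and 2 rose. Among amino acid transporters it lay in 6 of 21, of which 4 fell and 1 rose. These counts are given without a test.

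Amino acid supply genes gave a similar picture. Of 25 transporters 9 fell and 4 rose (2 under 6 alternatives), and of 26 genes of serine, one-carbon, asparagine and proline synthesis 11 fell and 3 rose (1 under 9 alternatives). SLC3A2, the heavy chain shared by several exchangers, was at 396, 407 and 399 FPKM in low and 254, 234 and 240 in high glucose (-0.72, SE 0.04, adjusted p = 5.7e-07). Its light chains SLC7A11, the cystine importer (-0.51), and SLC7A5, the leucine importer (-0.32), fell, as did SLC1A4 (-0.76) and the arginine carrier SLC7A1 (-0.43). The taurine transporter SLC6A6 rose from 23.6 ± 2.0 to 32.1 ± 0.28 FPKM (0.44, adjusted p = 0.00088).

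ASNS, asparagine synthetase, was low in these cells, at 3.68, 3.44 and 5.08 FPKM in low and 0.549, 0.841 and 1.42 in high glucose (-1.70, SE 0.22, adjusted p = 0.00033). In the mitochondrial one-carbon branch MTHFD2 fell from 242 ± 3.8 to 150 ± 3.2 FPKM (-0.69), SHMT2 by 0.35 and ALDH1L2 by 0.69, and in serine synthesis PSAT1 fell by 0.62 and PHGDH by 0.16. MAT2A, which makes S-adenosylmethionine, rose from 218 ± 5.0 to 269 ± 5.3 FPKM (0.30, adjusted p = 2.5e-05). PCK2, the mitochondrial enzyme that turns oxaloacetate to phosphoenolpyruvate, fell from 51.9 ± 1.2 to 26.9 ± 0.61 FPKM (-0.94, adjusted p = 8.4e-08).

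Of 39 genes for glucose transport, glycolysis and pyruvate 17 rose and 3 fell, PCK2, HK2 and SLC2A3, with a median of 0.11. They took 1.62% to 1.64% of each low and 1.76% to 1.83% of each high glucose library. PFKFB4, which makes the allosteric activator fructose 2,6-bisphosphate, was at 9.07, 9.59 and 11.2 FPKM in low and 24, 21.2 and 20.9 in high glucose, without overlap (1.11, SE 0.09, adjusted p = 1.8e-05). LDHA, lactate dehydrogenase, went from 839 ± 15.3 to 1045 ± 14.6 FPKM (0.32), and the lactate exporter SLC16A3 from 258 ± 5.2 to 341 ± 14.9 (0.40). ALDOC (0.41), ENO2 (0.31) and PGK1 (0.20) rose. At the entry of glucose the transporter SLC2A1 did not pass (127 ± 1.3 and 130 ± 4.8 FPKM, 0.03, adjusted p = 0.56), and SLC2A3 fell (-0.24). Of the hexokinases HK1 rose from 161 ± 4.8 to 178 ± 1.9 FPKM (0.15, adjusted p = 0.0041) and HK2, the less abundant, fell from 32.6 ± 0.66 to 25.3 ± 1.1 FPKM (-0.36). GAPDH did not pass either (0.06, adjusted p = 0.25).

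Side branches of glucose use were mixed. In the hexosamine pathway, which makes the donor for O-GlcNAc and N-glycans, 4 of 16 rose and 3 fell. OGA, which removes O-GlcNAc from proteins, was at 66.9, 66.6 and 68.3 FPKM in low and 101, 109 and 114 in high glucose (0.67, SE 0.04, adjusted p = 3e-06), while its counterpart OGT did not pass (0.05, adjusted p = 0.56, or 0.014 without high glucose library 1). The rate-limiting enzymes went opposite ways, GFPT1 from 31.7 ± 0.86 to 25.8 ± 1.5 FPKM (-0.30, adjusted p = 0.0017) and GFPT2 from 25.1 ± 1.4 to 34 ± 1.8 (0.43, adjusted p = 0.00073). Of 22 genes of polyol, fructose, glycogen and osmolyte handling 5 rose and 4 fell (2 without low glucose library 1). Aldose reductase AKR1B1 (0.22), glycogen synthase GYS1 (0.34) and inositol phosphate synthase ISYNA1 (0.37) rose, and glycogenin GYG1 (-0.27) and the phosphorylase PYGL (-0.14) fell. In the pentose phosphate pathway and NADPH supply 1 of 21 rose, IDH1 (0.23), and 2 fell, NADK2 (-0.26) and ME2 (-0.23).

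**Figure D5:**
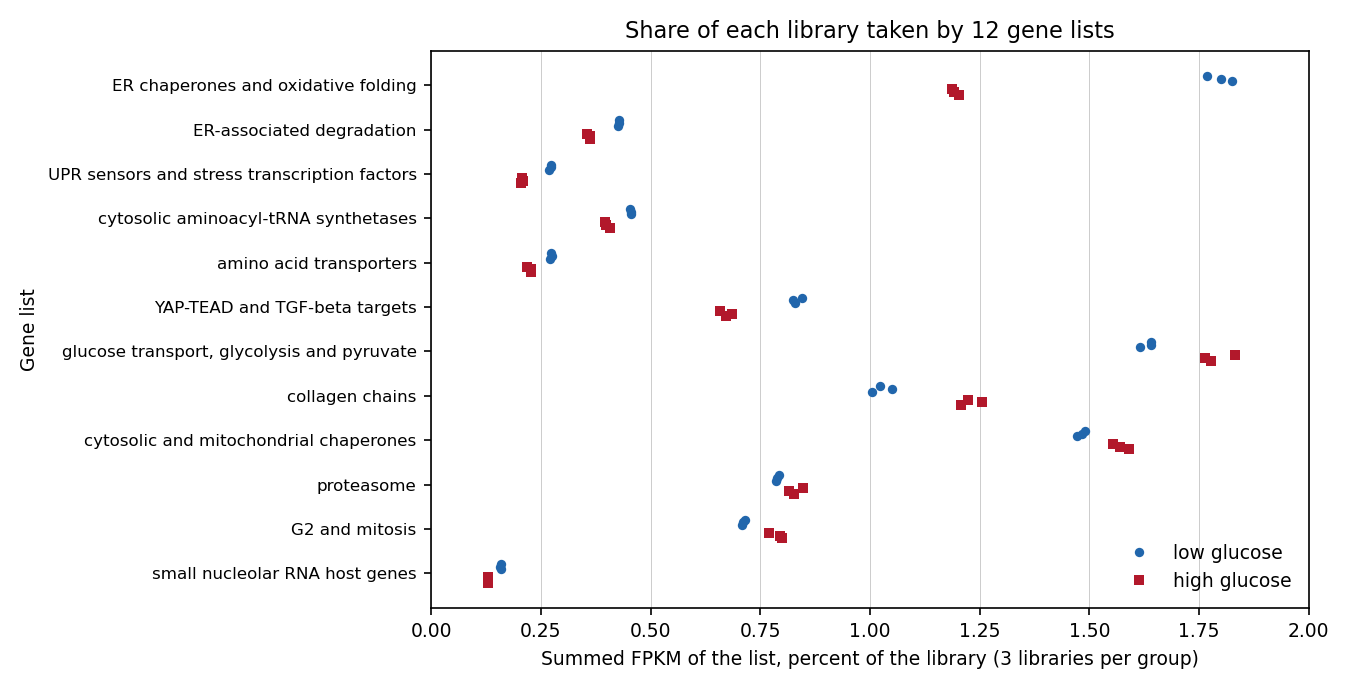
Summed FPKM of 12 gene lists as a percent of the whole library, one point for each of the 3 low glucose (circles) and 3 high glucose (squares) libraries, on a linear axis from 0. ER chaperones drop from 1.77% to 1.83% down to 1.19% to 1.20%, and the sums of the glycolysis list and of the collagen list, in which COL1A1 is a large part, lie higher in high glucose.

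Among 37 hypoxia-induced genes outside glycolysis 20 rose and 4 fell, with the highest median of the 37 lists (0.28). MIR210HG, the host transcript of miR-210, was at 2.2, 2.14 and 2.63 FPKM in low and 6.52, 7.18 and 7.08 in high glucose (1.40, SE 0.18, adjusted p = 0.00028). STC1, a secreted glycoprotein, was at 2.42, 2.19 and 2.59 FPKM and then 6.67, 6.58 and 5.83 (1.24, SE 0.12, adjusted p = 6.5e-05). CA9, carbonic anhydrase (0.82), NDRG1 (0.64), the mitophagy receptors BNIP3 (0.51) and BNIP3L (0.29) and the demethylase KDM3A (0.23) rose. The 4 that fell were DDIT4 (-0.65), VEGFA (-0.56), STC2 (-0.47) and ADM (-0.32). STC2 was the most abundant of these, at 506 ± 6.7 FPKM in low and 365 ± 5.5 in high glucose, so the list's summed share did not rise, lying between 0.299% and 0.303% in low and 0.290% and 0.298% in high glucose. ATF4 is known to induce DDIT4, VEGFA and STC2 as well, and its part in these falls was not tested.

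Of 15 genes for HIF subunits and oxygen sensing 2 rose (1 under 8 alternatives) and 5 fell, with a median of -0.04. Those that fell were HIF1A from 266 ± 2.7 to 228 ± 13 FPKM (-0.22, adjusted p = 0.0015), EPAS1, or HIF-2 alpha, by 0.40, the HIF competitor CITED2 by 0.60, and the ligases SIAH2 by 0.38 and SIAH1 by 0.22. The transmembrane prolyl hydroxylase P4HTM rose (0.28), and so did ELOC, a subunit of the VHL ligase (0.19, adjusted p = 0.046), a call lost with median-of-ratios scaling (0.086) and under other alternatives. HIF protein was not measured.

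Outside the ER, folding genes rose more often than they fell. Of 41 cytosolic and mitochondrial chaperones and cofactors 18 rose and 5 fell, with a median of 0.07, and their share went from 1.47% to 1.49% of each low to 1.55% to 1.59% of each high glucose library. HSPA2 was at 8.70, 8.13 and 8.39 FPKM in low and 16.4, 16.4 and 16.9 in high glucose, the largest change of the list (0.94, SE 0.05, adjusted p = 1.3e-06). HSPA8, the constitutive HSP70, went from 1400 ± 3.4 to 1633 ± 34.2 FPKM (0.22), the co-chaperones DNAJA1 (0.53), DNAJB1 (0.38) and BAG3 (0.47) rose, and so did HSPA1A (0.46) and HSPA1B (0.50), whose reads are hard to tell apart because the genes are near-identical. Those that fell included the mitochondrial HSPA9 (-0.22) and TRAP1 (-0.12, or -0.18 after correction for GC content and length) and the microsomal HSPA13 (-0.31). HSPD1 (-0.05, adjusted p = 0.13) passed only with median-of-ratios scaling (0.026) and after correction for GC content and length (0.019). HSP90AA1 did not pass (0.01).

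Of 38 proteasome genes 14 rose (36.8%, beside 15.7% of all genes tested and 28.6% of those at 100 FPKM or more). None fell, though 1 did with median-of-ratios scaling and after correction for GC content and length. The changes were small, with a median of 0.09, and the largest was that of PSMD12, a lid subunit (75.3 ± 1.8 to 96.7 ± 3.4 FPKM, 0.36, adjusted p = 4.6e-05). Of 60 mitochondrial ribosomal protein genes 12 rose (20%) and 3 fell (5%), beside 15.7% and 9.53% of all genes tested, so the rises lay near the share over all genes. The 12 became 7 with no filter and on leaving out low glucose library 2 or 3 or the first of high glucose, and the 3 became 6 on leaving out the first of high glucose, 5 after correction for GC content and length and 1 on leaving out the first of low glucose.

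In mTORC1 regulation 6 of 45 rose and 9 fell. SESN2, a leucine sensor that ATF4 induces, fell from 19.1 ± 1.0 to 8.90 ± 0.42 FPKM (-1.06, adjusted p = 1.9e-06), and folliculin FLCN fell by 0.46. CASTOR2, a relative of the arginine sensor CASTOR1, rose by 0.75, from 2.69 ± 0.28 to 4.87 ± 0.41 FPKM. In insulin and IGF signalling 6 of 24 rose and 5 fell (3 without high glucose library 1). The insulin receptor substrate IRS2 was at 6.54, 6.74 and 6.90 FPKM in low and 4.25, 4.56 and 3.92 in high glucose (-0.61, SE 0.08, adjusted p = 0.00033). IGFBP3, which binds IGFs outside the cell, fell by 0.55, AKT1 rose by 0.23, and the regulatory subunit PIK3R3 by 0.53.

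Genes of G2 and mitosis rose in 18 of 39 cases, with a median of 0.13, and none fell, except 1 under 4 alternatives (median-of-ratios scaling, limma voom, a mean of at least 5 FPKM, and without high glucose library 3). AURKA, a spindle kinase, was at 188, 191 and 188 FPKM in low and 259, 252 and 258 in high glucose (0.44, SE 0.02, adjusted p = 5.7e-07). The kinesin KIF20A (0.47), the proliferation marker MKI67 (0.38), survivin BIRC5 (0.29), CCNB1 (0.23) and CDK1 (0.16) rose too. In DNA replication 12 of 38 rose and 4 fell. FEN1 (0.42), PCNA (0.27), GINS1 (0.29) and MCM4 (0.19) rose. The origin licensing factors CDC6 (-0.39) and CDT1 (-0.34), the G1/S cyclin CCNE2 (-0.24) and the primase PRIM1 (-0.27) fell.

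Of 21 circadian clock genes 8 fell and 3 rose, with a median of -0.09. The falls numbered 5 on leaving out low glucose library 1 or 3 or the first of high glucose. PER1, a repressor of the clock, was at 26.1, 23.6 and 22.7 FPKM in low and 13.9, 11.1 and 11 in high glucose, without overlap (-0.98, SE 0.11, adjusted p = 0.00013). The nuclear receptor NR1D2 fell from 54.9 ± 3.2 to 35 ± 3.5 FPKM (-0.64), NFIL3 by 0.55, TEF by 0.38 and PER3 by 0.30. The repressors BHLHE40 (0.34) and BHLHE41 (0.45), which hypoxia also induces, rose. The activators ARNTL (-0.05, adjusted p = 0.56) and CLOCK (-0.05, adjusted p = 0.69) did not pass, and the sources used here give no time of harvest.

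Matrix and YAP-linked genes fell in part. Of 36 genes of the YAP-TEAD and TGF-beta pathways 12 fell and 4 rose, with a median of -0.02. ANKRD1, a nuclear ankyrin repeat protein of heart muscle, was at 16.6, 16 and 16.6 FPKM in low and 6.89, 6.86 and 6.71 in high glucose (-1.21, SE 0.05, adjusted p = 9.4e-08). The matricellular CCN1 went from 686 ± 32.9 to 439 ± 9.6 FPKM (-0.64) and CCN2 from 153 ± 5.9 to 89.9 ± 3.8 (-0.76), while INHBA (-0.80), tissue factor F3 (-0.62) and thrombospondin THBS1 (-0.47) also fell. YAP1 did not pass (-0.07, adjusted p = 0.31), its paralog WWTR1, or TAZ, rose (0.30), and of the ligands TGFB1 rose (0.38) and TGFB2 fell (-0.50).

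Of 22 collagen chains 4 rose and 4 fell (18.2% each, beside 15.7% and 9.53% of all genes tested), with a median of -0.05. COL1A1 was at 3720, 3840 and 3560 FPKM in low and 5307, 5204 and 4903 in high glucose, without overlap (0.47, SE 0.04, adjusted p = 1.1e-05), and its partner chain COL1A2 rose by 0.27. The basement membrane chains COL4A1 and COL4A2, a head-to-head pair, each fell by 0.20, and COL3A1 did not pass (-0.06, adjusted p = 0.28). In type V the chains diverged, COL5A1 rising by 0.21 and COL5A2 falling by 0.19. Summed collagen FPKM, of which COL1A1 is a large part, went from 1.0% to 1.05% of each low to 1.21% to 1.26% of each high glucose library. Fibroblast markers, which include both type I chains, went from 1.29% to 1.32% to 1.47% to 1.52%. In FPKM the collagen sums were 6946 to 7273 in low and 8343 to 8673 in high glucose. The fibroblast marker sums were 8918 to 9175 in low and 10184 to 10552 in high glucose. COL1A1 alone went from 3707 ± 140 to 5138 ± 210 FPKM, a rise about as large as that of either sum. The part of the fibroblast markers in the result was not tested. Collagen-modifying enzymes rose in 7 of 22 cases (4 after correction for GC content and length) and fell in 2, with P3H1 (0.22) among the rises.

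In a list of cytokines and growth factors that also holds intracellular members such as TNFAIP2, 7 of 25 tested genes fell and 3 rose. The stress cytokine GDF15 was at 11.2, 13.5 and 14.2 FPKM in low and 4.20, 3.96 and 4.61 in high glucose (-1.50, SE 0.14, adjusted p = 3.6e-05). PTX3, a soluble pattern receptor that overlaps VEPH1 on the other strand, fell from 33.3 ± 1.3 to 11.1 ± 0.37 FPKM (-1.54), CXCL2 by 0.91, FGF2 by 0.59 and IL6 by 0.39. IL11 (0.29) and TNFAIP2 (0.36) rose.

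Early response factors were split, with 8 of 28 higher (4 or 5 under 10 alternatives, including median-of-ratios scaling) and 8 lower. MYC fell from 76.8 ± 1.6 to 46.6 ± 2.9 FPKM (-0.72, adjusted p = 4e-06), whereas JUNB (0.65), IER2 (0.50) and JUN (0.37) rose. Among feedback regulators of MAP kinases and G proteins 7 of 26 rose (4 without low glucose library 2) and 4 fell, with DUSP1 (-0.72) and RGS4 (-0.70) lower and SPRY1 (0.73) higher. Of 28 genes of the BCL2 family and death receptors 10 rose and 4 fell. BMF, a BH3-only protein, rose from 2.30 ± 0.27 to 5.01 ± 0.71 FPKM (0.97), the decoy receptor TNFRSF10D from 15.3 ± 0.16 to 27.2 ± 0.76 (0.81), and APAF1 rose by 0.50. PMAIP1, or NOXA, which ATF4 can induce, fell from 21.4 ± 1.9 to 13.5 ± 1.4 FPKM (-0.65).

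SCD, the fatty acid desaturase of the series title (SCD1), was at 151, 159 and 161 FPKM in low and 143, 154 and 151 in high glucose, with overlapping libraries (-0.07, SE 0.04, adjusted p = 0.18). Of 26 fatty acid synthesis genes 5 rose (2 or 3 under 11 alternatives) and 2 fell (1 to 5 across alternatives), with the elongase ELOVL6 at 0.42. Among 35 glutathione, NRF2 and ferroptosis genes 13 rose and 6 fell. NQO1, an NRF2 target, went from 238 ± 1.9 to 312 ± 6.7 FPKM (0.38), CBR1 rose by 0.42, and CHAC1, which degrades glutathione and is a target of ATF4, fell from 19.8 ± 1.8 to 7.94 ± 1.5 FPKM (-1.28). Of 32 sterol genes 9 fell and 4 rose (2 under 3 alternatives), with the sterol carrier STARD4 (-0.68) and HSD17B7 (-0.65) lower. Of 28 purine and pyrimidine synthesis genes 4 rose and 5 fell (3 to 8 across alternatives), with CTPS1, which makes CTP, at -0.31.

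Among 25 host genes of small nucleolar RNAs, whose spliced transcripts are known to be cleared when they are translated, 12 fell and 2 rose, with a median of -0.21. GAS5 was at 275, 271 and 282 FPKM in low and 194, 193 and 196 in high glucose, without overlap (-0.51, SE 0.03, adjusted p = 5.7e-07). SNHG17 (-0.47), SNHG15 (-0.45), SNHG8 (-0.45) and SNHG7 (-0.43) fell by similar amounts, and SNHG30 (0.68) and SNHG3 (0.26) rose. The list's share went from 0.156% to 0.158% of each low to 0.129% to 0.13% of each high glucose library.

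Of the 4 cardiac markers tested 2 fell. ATP2A2, the calcium pump of the sarcoplasmic and endoplasmic reticulum, was at 250, 256 and 258 FPKM in low and 181, 198 and 193 in high glucose (-0.42, SE 0.03, adjusted p = 1.9e-05), and NPPB, the natriuretic peptide B precursor, at 18.7, 18.7 and 19.6 and then 12.5, 15 and 12.1 (-0.52, SE 0.08, adjusted p = 0.00089). GATA4 did not pass (8.71 ± 0.23 and 9.41 ± 0.92 FPKM). Among 16 fibroblast markers 4 rose and 5 fell, THY1 (0.35) and DDR2 (-0.47) among them. Of 7 smooth muscle markers tested 1 rose and 2 fell. Endothelial markers summed to 4.83 to 5.62 FPKM in low and 4.76 to 5.08 in high glucose. Leukocyte markers, of which CD3E was at 0 in all 6 libraries, summed to 3.40 to 3.63 FPKM in low and 5.24 to 5.81 in high glucose, without overlap, and CD14 rose from 2.22 ± 0.08 to 3.91 ± 0.22 FPKM (0.70, adjusted p = 0.0005). Epithelial markers summed to 304 to 320 FPKM in low and 335 to 366 in high glucose, also without overlap. Of 5 tested only 1 passed, KRT18, a keratin that overlaps KRT8 on the other strand, which rose by 0.18. The sums were mostly KRT18 (227 to 237 FPKM in low and 252 to 275 in high glucose) and KRT8 (70.8 to 74.8 and 76.9 to 84.8). The groups overlapped for EPCAM (1.70 to 2.23 and 1.53 to 1.96) and KRT19 (3.45 to 4.43 and 3.03 to 3.93). The part of these markers in the other results was not tested.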

How the data were processed

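The deposited table held FPKM, made by the authors; no header names the unit, which was read from the values. Per the submitters' processing notes, the build was hg38 and the tools included HTSeq 0.13.5, StringTie 2.2.1, HISAT2 2.2.1 and fastp 0.23.4, with no roles. The sources used here give neither the annotation release nor whether counting was by strand. Dividing each gene's values by what 1 read is worth gave whole numbers for all 28230 genes above 0 in at least 2 libraries (within 4.4e-05 reads, tolerance 0.002), 18171842 to 23024300 per library. The 1094 rows with repeated names were tested as separate genes.

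Genes were tested on log2(FPKM + 0.5) by limma 3.58.1 in R 4.3.3, its prior variance following the mean, with all 9 libraries in one fit with a mean per group, 6 residual degrees of freedom, a two-sided contrast of high minus low glucose, and Benjamini-Hochberg adjustment over 16163 genes at 0.05. The smallest p that an exact permutation test allows here, with 3 libraries a group, is 0.1. The script was tested on simulated data.

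The comparison, the 37 gene lists and the 6 marker lists were chosen with earlier results of these data known, and lists share some genes. They were described by counts and medians with no set test. The text draws its names from 5 sources: calls without overlap between groups, with a mean log2 of at least 1 and a unique symbol, of which the 20 highest and 20 lowest in fold change; genes taken whatever their value (TXNIP, ATF6 and SCD among them); up to 6 members of each list with the smallest p; members called in a list's rarer direction where 4 or fewer; and called markers. Any other gene was named after its values were seen. Positions came from GENCODE 29 (hg38), matched by name for 56440 of 60671 rows, and promoter sequences from RefSeq. Alternatives were pseudocounts, filters, scaling, limma voom on recovered reads, a replicate block, the 6 libraries alone, a minimum change, a loess correction for GC content and length (span 0.4) and leaving out each library. Results of some genes are not reported here.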

Additional observations from a re-analysis of the deposited data

How the results depend on the processing

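With an absolute log2 fold change of at least 1 required beside the adjusted p, 25 genes were higher and 70 lower. The other alternatives gave 1902 to 2889 higher and 1147 to 2062 lower, against 2540 and 1540. Leaving out 1 library gave 1902 to 2392 higher and 1147 to 1489 lower. No gene called here was called in the opposite direction under any alternative. Of 368 named genes that passed, 320 kept the call under all 19 alternatives that give calls over the table, 48 lost it under at least 1 and 0 reversed. Deviations from the group means over all genes tested did not correlate between same-numbered libraries (0.007, -0.0049 and -0.018). All genes weighed the same there, so noise in low genes could hide a small shared batch, and a pairing was neither shown nor excluded. The fit with the replicate block called 2298 higher and 1446 lower. From 0.5 to 1 FPKM 2.05% were called higher and at 100 FPKM or more 28.6%; the parts of depth and of the pseudocount in this were not tested.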

Other observations

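Genes outside the lists also changed, and are given as values chosen after they were seen. The mitochondrial large ribosomal RNA MT-RNR2 was at 3974, 4035 and 4296 FPKM in low and 2942, 2766 and 2689 in high glucose (log2 -0.55, SE 0.04, limma adjusted p = 9.6e-06). Of the 13 messenger RNAs encoded in the mitochondrial genome 8 rose and 0 fell (1 on leaving out the second low glucose library), with changes from -0.06 to 0.42. MT-CYB went from 1831 ± 11.7 to 2429 ± 182 FPKM (0.41, adjusted p = 0.00021), and the other ribosomal RNA, MT-RNR1, did not pass (-0.13, adjusted p = 0.096, or 0.02 with limma voom and 0.04 without high glucose library 2). The libraries of the groups did not overlap for MT-RNR2. Polyadenylated RNA was measured, so the values of both ribosomal RNAs may also depend on that selection, which was not tested.

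The secreted antagonists FST (-1.15), of activin, and DKK1 (-0.53), of Wnt, fell by limma's test, as did the protease ADAMTS1 (-0.88), the hyaluronan synthase HAS2 (-0.87), the Notch ligand JAG1 (-0.83) and CD274, or PD-L1 (-1.02). DNAJC3-DT, the divergent transcript that starts beside DNAJC3, fell with it, from 2.55 ± 0.36 to 0.903 ± 0.12 FPKM (-1.12, adjusted p = 0.00054). SOCS3, a feedback inhibitor of cytokine signalling, rose from 22 ± 1.4 to 35.2 ± 0.32 FPKM (0.67, adjusted p = 2e-05), the placental growth factor PGF by 0.63 and the splicing factor SFPQ by 0.41.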
